A study of Zea mays with 96 samples.

Results

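A set of 200 genes, out of 46430 genes counted, had a higher transcript level in 16 DAP endosperm of the maize *nkd1 nkd2 o2* triple mutant than in WT (DAP, days after pollination). In the *nkd1 nkd2* double mutant and the *o2* single mutant, the difference from WT was within a set limit. The genes were chosen by their 16 DAP levels. The level of a gene in a library was its CPM, the count of its reads scaled to a fixed total of reads on genes, and the difference of a genotype from WT, here called L, was log2((mean CPM + 1)/(mean CPM of WT + 1)) over 4 libraries each. Genes with an absolute L below 0.7 in both *nkd1 nkd2* and *o2* and an L of 1 or more in *nkd1 nkd2 o2* were kept. This left 1802 of the 5456 genes with an L of 1 or more in the triple mutant. Since 1 CPM is added to each mean, a gene far below 1 CPM can differ from WT several-fold and stay within the limit of 0.7. The 200 with the highest L in *nkd1 nkd2 o2* were taken. All 16 DAP values of the triple mutant, *nkd1 nkd2*, *o2* and WT are therefore given as a description without a test. Tests were made in libraries that the choice did not use, at 8 and 12 DAP and in the other mutants at 16 DAP.

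NAKED ENDOSPERM1 (NKD1) and NKD2 are duplicate INDETERMINATE DOMAIN transcription factors that pattern the aleurone, the surface cell layer of the endosperm, and promote storage product synthesis in the starchy cells beneath it. OPAQUE2 (O2) is a basic leucine zipper transcription factor that activates zein storage protein genes. Endosperm at the youngest of these ages is still dividing and differentiating, and by the oldest it is filling with starch and protein.

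The study sequenced whole-endosperm mRNA of WT, of plants homozygous for *nkd1*, *nkd2* or *o2* alone, of the double mutants *nkd2 o2*, *nkd1 o2* and *nkd1 nkd2*, and of the triple mutant *nkd1 nkd2 o2* at 8, 12 and 16 DAP, with 4 libraries in each of the 24 groups. All 8 genotypes were in the W22 inbred background and came from a cross of an *nkd1-Ds nkd2-null* double mutant with an *o2* mutant, so each mutated gene was represented by 1 allele. Plants were self-pollinated, in the field per the sample labels, while the study's methods name a greenhouse or a field for its materials. The endosperms pooled for a library came from 1 ear, and the 4 libraries of a group came from different ears. Whether libraries of different ages shared ears is not given in the study's methods. Reads of W22 were placed on genes of the B73 inbred, so a gene absent from or divergent in B73 can be undercounted. In whole endosperm, fewer cells of a type and less RNA per cell cannot be told apart.

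The libraries held 31327665 to 68052826 reads on genes, with a median of 50009154. The levels of *o2* and *nkd2* followed the labels at 16 DAP, and that of *nkd1* did so only in part. *o2* (Zm00001d018971) was at 683 to 832 CPM in WT and at 0 to 0.232 CPM in *nkd1 nkd2 o2*. *nkd2* (Zm00001d026113) was at 20.3 to 27.6 CPM in WT and at 0.308 to 0.586 CPM in the triple mutant. *nkd1* (Zm00001d002654), whose allele is a *Ds* insertion, kept reads, at 81.8 to 105 CPM in WT, 32.3 to 40.7 CPM in *nkd1* and 65.2 to 77.9 CPM in *nkd1 nkd2 o2*. The zein gene *fl2* (Zm00001d049243), an endosperm storage marker, had a mean of 29683 CPM in WT at 16 DAP and of 1.49 CPM in *nkd1 nkd2 o2*. Of the aleurone markers only *c1* (Zm00001d044975), a regulator of pigment synthesis, was matched, at means of 0.313 CPM in WT and 0.0558 CPM in the triple mutant. Of the cell division markers only *mcm6* (Zm00001d010406), a subunit of the helicase of DNA replication, was matched. Its mean at 16 DAP was 5.26 CPM in WT, 9.13 CPM in *o2*, 17.5 CPM in *nkd1 nkd2*, 12.0 CPM in *nkd2 o2*, 46.5 CPM in *nkd1 o2* and 43.9 CPM in *nkd1 nkd2 o2*, so it was highest in the same pair of genotypes as the 200 genes, and its part in the results was not tested. CPM is a share of the library, and the median L of genes past the low-count filter in the triple mutant at 16 DAP was 0.49 on this scale against 0.01 with TMM-normalized CPM, which corrects for the makeup of the library. On the TMM scale the L of the 200 genes in *nkd1 nkd2 o2* ran from 0.86 to 4.17 with a median of 1.26, and 169 of the 200 still had an L of 1 or more.

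The L of the 200 genes in *nkd1 nkd2 o2* at 16 DAP ran from 1.57 to 4.64 with a median of 1.74. The last genes taken, Zm00001d046761 and Zm00001d012611, both had an L of 1.57, and the first genes left out, Zm00001d014748 and Zm00001d049738, also had an L of 1.57. Near the limit of 0.7 in *nkd1 nkd2*, Zm00001d044162 was in with an L of 0.697 and Zm00001d023462 was out with 0.701. Near the same limit in *o2*, Zm00001d039412 was in with 0.697 and Zm00001d020685 was out with 0.707. Most of the 200 genes were weakly transcribed in WT at 16 DAP. The WT mean was below 1 CPM for 96 of them, 8 had no read in any of the 4 WT libraries, and 28 had a mean of 10 CPM or more. In the triple mutant, 86 had a mean of 10 CPM or more. The *nkd1 nkd2 o2* libraries of 186 genes all lay above all 12 libraries of WT, *nkd1 nkd2* and *o2*, where 27% of all genes with a mean of 1 CPM or more did so. This separation follows from the choice of the genes. The spread among the triple mutant libraries differed between genes, with a highest library at most 2 times the lowest for 133 genes and at least 10 times the lowest for 12.

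**Figure D1:**
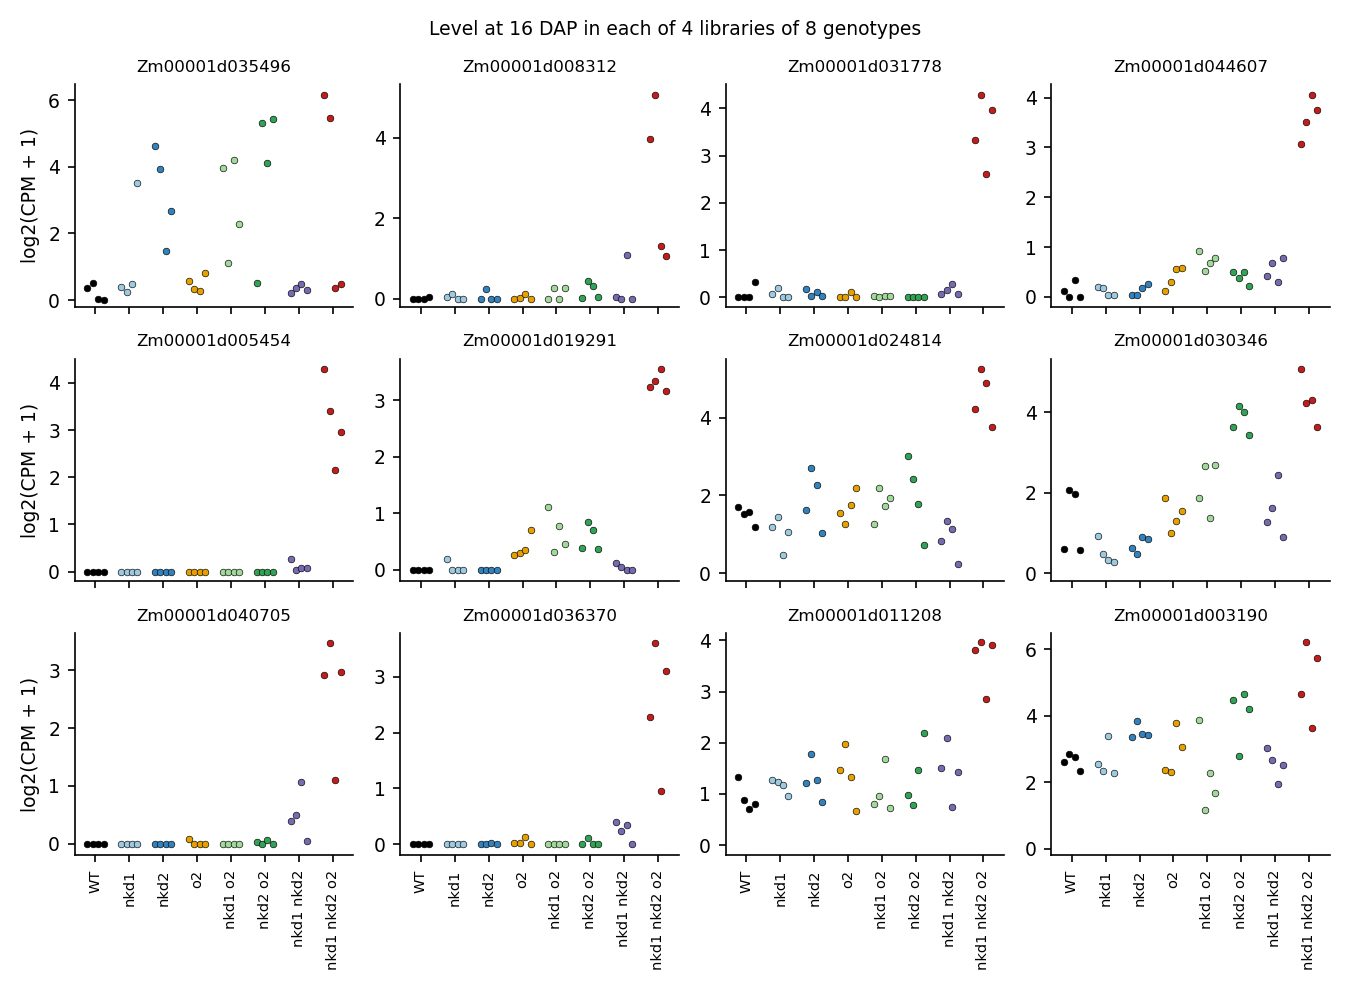
Level at 16 DAP, as log2(CPM + 1), of the 12 genes with the highest L in *nkd1 nkd2 o2*, 1 panel per gene, with a point for each of 4 libraries of the 8 genotypes on the horizontal axis. Zm00001d019291 had 4 triple mutant libraries close together, while Zm00001d035496 was high in 2 of the 4 and also high in libraries of *nkd2*, *nkd1 o2* and *nkd2 o2*.

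The gene with the highest L, Zm00001d035496, was unlike most of the others. Its L was 4.64. At 16 DAP it was at 70.5, 43.1, 0.273 and 0.390 CPM in *nkd1 nkd2 o2* and at 0.291, 0.425, 0.0263 and 0 CPM in WT, so 2 triple mutant libraries were high and 2 were within the WT range. Libraries of other mutants were high as well, at 23.5, 14.2, 1.78 and 5.31 CPM in *nkd2*, at 14.5, 1.15, 17.5 and 3.86 CPM in *nkd1 o2* and at 0.427, 38.7, 16.3 and 42.2 CPM in *nkd2 o2*. At 12 DAP the triple mutant split again, with 0.407 and 0.396 CPM in replicates 1 and 2 and 32.2 and 39.2 CPM in replicates 3 and 4. All 4 *nkd2* libraries of 12 DAP were high, at 21.7, 25.8, 11.5 and 18.8 CPM. Its high and low libraries thus did not follow the genotype labels. Zm00001d008312, with an L of 3.74, also had a wide spread. It was at 14.7, 32.6, 1.48 and 1.09 CPM in *nkd1 nkd2 o2*, at 0, 0, 0 and 0.0313 CPM in WT, and at 1.11 CPM in 1 library of *nkd1 nkd2*, which overlaps the lowest triple mutant library.

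Other genes near the top of the order were close to absent from every genotype but the triple mutant. Zm00001d031778 was at 9.04, 18.6, 5.08 and 14.7 CPM in *nkd1 nkd2 o2* at 16 DAP, at 0, 0, 0 and 0.251 CPM in WT, at 0.0530, 0.118, 0.223 and 0.0572 CPM in *nkd1 nkd2* and at 0, 0, 0.0770 and 0 CPM in *o2*. Zm00001d005454 was at 18.6, 9.54, 3.46 and 6.77 CPM in the triple mutant and at 0 in all 4 libraries of WT, *o2*, *nkd1*, *nkd2*, *nkd1 o2* and *nkd2 o2*. It kept a low level, 0.0197 to 0.212 CPM, in *nkd1 nkd2*. Against a floor of 3 counts over the 4 WT libraries its mean in the triple mutant was at least 472-fold higher. Zm00001d019291 was at 8.43, 9.13, 10.8 and 8.04 CPM in the triple mutant, a narrow spread, and at 0 in the 4 WT libraries, at least 448-fold higher. It was at 0.201, 0.227, 0.269 and 0.622 CPM in *o2* and at 0.0883, 0.0394, 0 and 0 CPM in *nkd1 nkd2*.

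Zm00001d040705 and Zm00001d036370 had no WT read at 16 DAP either. Zm00001d040705 was at 6.58, 10.1, 1.15 and 6.81 CPM in the triple mutant and at 0.318, 0.414, 1.09 and 0.0382 CPM in *nkd1 nkd2*. Zm00001d036370 was at 3.88, 11.2, 0.937 and 7.57 CPM in the triple mutant and at most at 0.318 CPM in *nkd1 nkd2*. For both genes the third library was the lowest of the triple mutant, which was so for 92 of the 200 genes, a count made for the set only. Zm00001d044607, at 7.44, 10.4, 15.7 and 12.5 CPM in *nkd1 nkd2 o2* and 0.0794, 0, 0.263 and 0 CPM in WT, had its highest value in the third library instead. Zm00001d024814 was at 17.6, 37.2, 28.5 and 12.5 CPM in the triple mutant and at 2.28, 1.85, 1.97 and 1.28 CPM in WT, with no overlap. Zm00001d030346 was at 33.2, 17.7, 18.7 and 11.5 CPM in the triple mutant and at 0.503, 3.23, 2.89 and 0.501 CPM in WT. Its WT libraries differed among themselves, but all lay below the triple mutant. Zm00001d011208 was at 13.1, 14.7, 6.23 and 14.0 CPM in the triple mutant and at 1.51, 0.850, 0.631 and 0.752 CPM in WT. Zm00001d003190, the last of the 12 highest, was at 24.4, 74.0, 11.3 and 52.3 CPM in the triple mutant and at 5.08, 6.18, 5.70 and 4.04 CPM in WT. These 2 genes also had no overlap between the triple mutant and WT. None of the 12 genes has a product name in the sources used here.

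The summed level of the 200 genes put these values beside all 24 groups. In WT the sum was 4702 ± 392 CPM at 8 DAP (mean ± SD, n = 4), 1357 ± 97.9 CPM at 12 DAP and 1122 ± 68.9 CPM at 16 DAP. In *nkd1 nkd2 o2* it was 5344 ± 73.8, 3418 ± 343 and 4448 ± 365 CPM. The means of the triple mutant and WT were closest at 8 DAP and farthest apart at 16 DAP, where the lowest library of the triple mutant, at 3934 CPM, lay above the highest WT library, at 1219 CPM. The *nkd1* and *nkd2* sums at 16 DAP, 975 ± 28.2 and 1105 ± 120 CPM, were near WT, and those of *nkd1 nkd2* and *o2* were 1643 ± 113 and 1464 ± 42.0 CPM. The combinations of *o2* with 1 *nkd* mutation lay between these and the triple mutant, with 2574 ± 262 CPM in *nkd1 o2* and 2049 ± 95.9 CPM in *nkd2 o2*. These sums at 16 DAP include the values that chose the genes. With TMM-normalized CPM the differences were smaller. The sum in WT was then 3557 ± 252 at 8 DAP and 1662 ± 80.9 at 16 DAP, and in the triple mutant 4491 ± 98.9 and 3988 ± 202.1. On this scale *o2*, at 1637 ± 30.4, was within the spread of WT at 16 DAP.

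**Figure D2:**
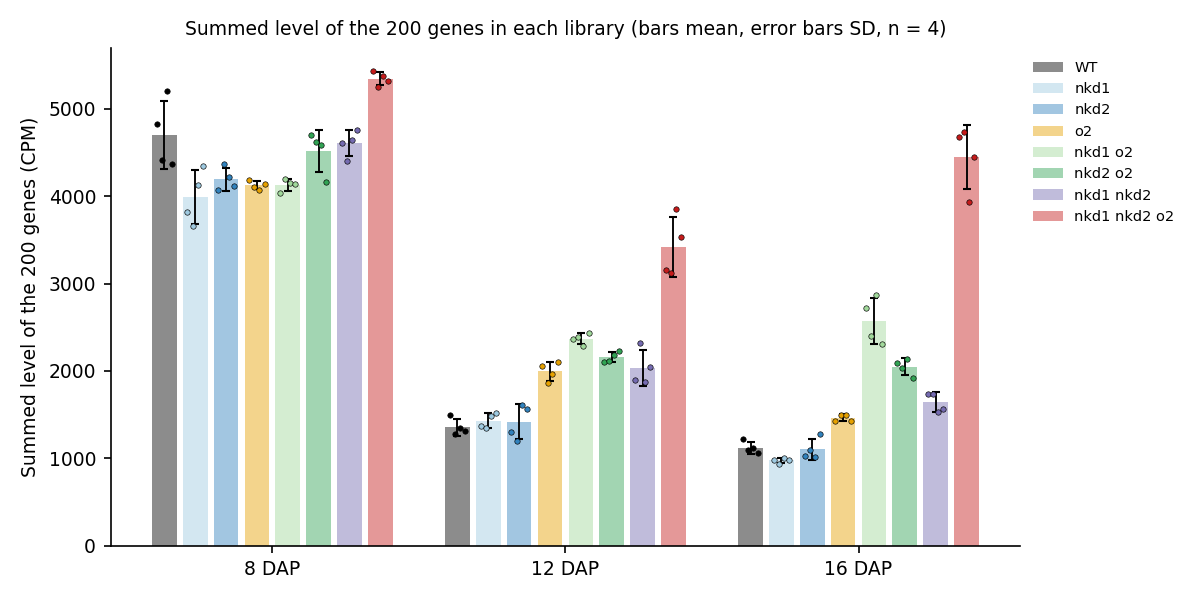
Summed level of the 200 genes in CPM (vertical axis, from 0) at 8, 12 and 16 DAP, with a bar for the mean of each genotype, an error bar for the SD of 4 libraries and a point for each library. All genotypes were within 3655 and 5429 CPM at 8 DAP, and at 16 DAP the triple mutant libraries, at 3934 to 4733 CPM, stood above those of *nkd1 o2*, at 2313 to 2865 CPM.

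Gene by gene, the median difference of the triple mutant from WT was higher at 12 than at 8 DAP. Its value at 16 DAP was set by the choice of the genes, so the step from 12 to 16 DAP is not a result. The median L of the 200 genes in *nkd1 nkd2 o2* went from -0.10 at 8 DAP through 0.97 at 12 DAP to 1.74 at 16 DAP, beside -0.05, 0.35 and 0.61 for all 18728 genes with a mean of 1 CPM or more. L was above 0 for 82 genes at 8 DAP, 190 at 12 DAP and all 200, by their choice, at 16 DAP. In *nkd1 nkd2* the median L of the 200 genes was 0.35 at 12 DAP (0.29 for all genes), and in *o2* it was 0.27 (0.28 for all genes). At 16 DAP the median L in *nkd1* was -0.06 and in *nkd2* -0.01. It was 0.80 in *nkd1 o2* (0.48 for all genes) and 0.52 in *nkd2 o2* (0.37 for all genes). In *nkd1 nkd2* it was 0.50 (0.30 for all genes), with L above 0 for 188 of the 200 genes, and in *o2* it was 0.17 (0.34 for all genes). The choice of the genes limited L in these 2 mutants.

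**Figure D3:**
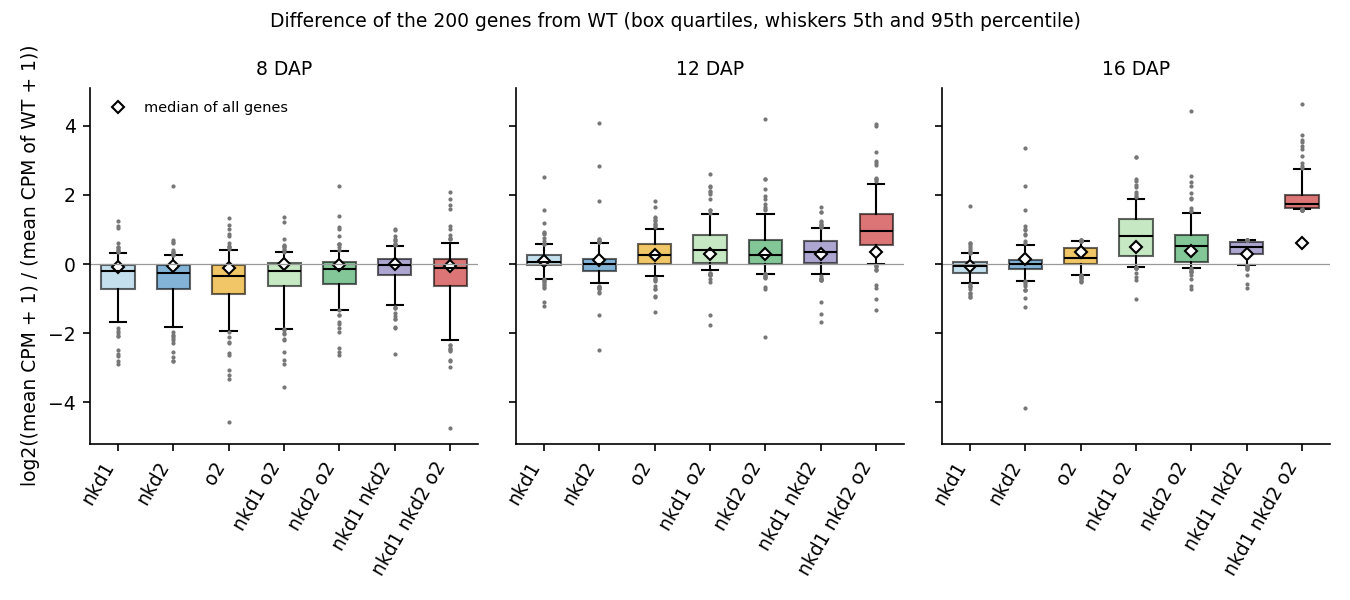
Difference of the 200 genes from WT, as log2((mean CPM + 1)/(mean CPM of WT + 1)), for the 7 mutants at 8, 12 and 16 DAP, with a box for the quartiles, whiskers at the 5th and 95th percentile and a diamond for the median of all genes. The triple mutant box had a median of -0.10 at 8 DAP, 0.97 at 12 DAP and 1.74 at 16 DAP. By the choice of the genes, the 16 DAP box of the triple mutant is held at 1 or more. Those of *nkd1 nkd2* and *o2* are held within 0.7 of 0.

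The first question was whether the rise was present at 12 DAP, in libraries not used to choose the genes. Of the 200 genes, 185 passed the low-count filter at 12 DAP. A gene was called when its adjusted p in edgeR's quasi-likelihood test was below 0.05 and its absolute log2FC above 1. In *nkd1 nkd2 o2* against WT, 89 of the 200 genes rose (44.5%) and 2 fell, where 11.3% of all genes tested rose and 9.2% fell. The 4 triple mutant libraries of 140 genes lay above the 4 WT libraries, where 50.7% of all genes did so, and for 98 genes L was 1 or more at 12 DAP, where 14.9% of all genes reached it. A gene called at 12 DAP passed the filter in part through its level in the group where it was high.

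Among the genes that rose at 12 DAP, Zm00001d012553 had the lowest adjusted p of those named here. It was at 32.8, 31.2, 43.8 and 40.2 CPM in *nkd1 nkd2 o2*, at 1.15, 1.5, 1.48 and 1.02 CPM in WT, at 2.73, 3.75, 4.65 and 4.75 CPM in *nkd1 nkd2* and at 3.04, 4.42, 4.48 and 4.48 CPM in *o2*. The triple mutant libraries stood far above the other 12, with a log2FC over WT of 4.40 ± 0.31 (SE) and an adjusted p of 3.38e-12. Zm00001d053212 had the same order at a higher level. It was at 59.8, 49.5, 75.3 and 68.0 CPM in the triple mutant, at 7.10, 8.04, 7.21 and 6.25 CPM in WT, at 10.9, 14.8, 12.7 and 13.7 CPM in *nkd1 nkd2* and at 24.2, 23.9, 25 and 25.2 CPM in *o2*. Neither the triple mutant and *o2* libraries nor those of *o2* and *nkd1 nkd2* overlapped, and the log2FC of the triple mutant was 2.70 ± 0.21 over WT (adjusted p = 2.17e-11), 2.19 over *nkd1 nkd2* and 1.22 over *o2*. Zm00001d029625 was at 7.39, 7.32, 8.49 and 6.99 CPM in the triple mutant, at 0.776, 0.449, 0.539 and 0.488 CPM in WT, at 1.38, 2.25, 1.27 and 1.74 CPM in *nkd1 nkd2* and at 2.09, 2.06, 2.36 and 3.0 CPM in *o2*. The triple mutant libraries were again apart from the other 12, with a log2FC of 3.29 ± 0.30 over WT (adjusted p = 5.83e-10), 2.09 over *nkd1 nkd2* and 1.52 over *o2*.

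Genes close to absent from WT at 12 DAP formed another group. Zm00001d019291 was at 2.91, 1.15, 12.8 and 9.61 CPM in the triple mutant and at 0 in the 4 WT libraries, at least 404-fold higher against the floor of 3 counts (adjusted p = 6.52e-07). It was at 0.506, 0.235, 0.705 and 0.867 CPM in *o2* and at 0, 0, 0.0176 and 0 CPM in *nkd1 nkd2*, so its *o2* libraries came closer to the triple mutant than those of *nkd1 nkd2*. Zm00001d050714 was at 5.52, 5.97, 10.8 and 12.1 CPM in the triple mutant and at 0, 0, 0.0200 and 0.0465 CPM in WT (adjusted p = 2.59e-07). Zm00001d005454 was at 1.81, 0.270, 0.721 and 0.312 CPM in the triple mutant and at 0 in WT and *o2*, at least 47.6-fold higher than WT (adjusted p = 0.000493). In this gene *nkd1 nkd2* was at 0.149, 0.430, 0.229 and 0.146 CPM, which overlaps the triple mutant.

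Lower-level genes were also apart from WT, and most of them were called higher than WT in *nkd1 nkd2* or *o2* too. For Zm00001d019538 the log2FC over WT was 2.81 in *nkd1 nkd2* and 3.27 in *o2*, and for Zm00001d051313 it was 1.92 and 1.59. Zm00001d012484 (2.39) and Zm00001d011208 (1.05) were called in *nkd1 nkd2* only, Zm00001d052837 (2.84) in *o2* only and Zm00001d044607 in neither. Zm00001d019538 was at 4.74, 5.09, 5.95 and 6.31 CPM in the triple mutant and at 0.179, 0.150, 0.140 and 0.186 CPM in WT, with a log2FC of 4.62 (adjusted p = 3.29e-09). Zm00001d052837 was at 3.75, 2.91, 4.80 and 3.52 CPM against 0.199, 0.0499, 0.120 and 0.163 CPM, with a log2FC of 4.34 (adjusted p = 2.94e-07). Zm00001d012484 was at 10.3, 8.58, 11.5 and 12.1 CPM against 1.33, 0.349, 0.499 and 0.163 CPM, with a log2FC of 3.73 ± 0.46 (adjusted p = 1.23e-07). In each of these 3 genes the triple mutant and WT libraries did not overlap. Zm00001d051313 was at 5.56, 3.54, 4.62 and 2.84 CPM against 0.279, 0.275, 0.419 and 0.395 CPM, with a log2FC of 3.14 (adjusted p = 1.08e-07). Zm00001d044607 was at 6.6, 5.11, 6.71 and 11.5 CPM against 2.17, 0.624, 0.999 and 0.743 CPM, with a log2FC of 2.29 ± 0.61 (adjusted p = 0.00264). Zm00001d011208 had a log2FC of 1.45 (adjusted p = 0.00398), from 8.25, 9.19, 15.8 and 8.20 CPM in the triple mutant and 4.10, 2.07, 2.6 and 2.39 CPM in WT. Its *nkd1 nkd2* libraries, at 5.07, 9.28, 6.94 and 8.17 CPM, overlapped those of the triple mutant, and the call against WT was lost without replicate 3 (adjusted p = 0.0586).

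Not every gene of the set was higher at 12 DAP. Zm00001d024814 was at 1.61, 1.49, 2.90 and 1.52 CPM in the triple mutant and at 4.48, 0.524, 0.459 and 1.12 CPM in WT, where 1 library lay above and 3 below the triple mutant, and it was not called (log2FC = -0.23, adjusted p = 0.828). Zm00001d003190 was not called either, with 2.90, 0.0250, 2.04 and 28.1 CPM in WT (adjusted p = 0.0965). The 2 genes that fell were Zm00001d025682 and Zm00001d020556. Zm00001d025682 was at 10.2, 13.1, 14.0 and 14.8 CPM in the triple mutant and at 26.2, 53.1, 30.3 and 27.2 CPM in WT at 12 DAP (log2FC = -1.85, adjusted p = 0.0181). At 16 DAP it was at 178, 128, 121 and 179 CPM in the triple mutant and at 52.1, 37.8, 27.1 and 19.3 CPM in WT, so the order of the genotypes was turned. Zm00001d020556 was at 0.814, 0.378, 0.561 and 0.202 CPM against 1.13, 1.42, 1.12 and 1.97 CPM at 12 DAP (log2FC = -1.99, adjusted p = 0.000333), and at 4.05, 3.60, 3.51 and 2.75 CPM against 0.344, 0.150, 0.0526 and 0.595 CPM at 16 DAP.

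At 12 DAP the triple mutant was also set against each of its parts. Against WT, *nkd1 nkd2* rose in 18 of the 200 genes and fell in 8, where 6.47% of all genes tested rose and 5.25% fell, and *o2* rose in 18 and fell in 6, where 3.22% rose and 6.65% fell. Of the 89 genes that rose over WT in the triple mutant, 26 also rose in *nkd1 nkd2* or *o2*, a count made for the set only. Against *nkd1 nkd2*, the triple mutant rose in 62 of the 200 genes (31%), where 3.72% of all genes rose. Against *o2* it rose in 81 (40.5%) and fell in 3, where 11.8% rose and 6.44% fell. Zm00001d012553, Zm00001d053212 and Zm00001d029625 rose in all 3 comparisons. The 4 libraries of the triple mutant lay above all 12 libraries of WT, *nkd1 nkd2* and *o2* for 81 genes, where 14.3% of all genes did so. These comparisons share the 12 DAP libraries of the triple mutant and of WT. Without replicate 3, 36 genes rose over *nkd1 nkd2*, and the count over all genes went from 912 to 594. In the third triple mutant library of 12 DAP, 96 of the 200 genes had the highest value of the group. The count was made for the set only, so a shift of the whole library cannot be told apart.

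The interaction of *nkd1 nkd2* with *o2* asks whether the level in the triple mutant differs, on the log2 scale, from the sum of the *nkd1 nkd2* and the *o2* difference. At 12 DAP it was above 0 in 46 of the 200 genes (23%) and below 0 in 5, where 11.3% and 12.4% of all genes tested were called in these directions. Zm00001d012553 had an interaction of 1.75 ± 0.28 (adjusted p = 0.000285) and Zm00001d053212 of 0.70 (adjusted p = 0.00763). In both genes the triple mutant lay further above WT than the 2 partial mutants added up. Zm00001d019538 had one below 0, at -1.45 (adjusted p = 0.0455). Its *nkd1 nkd2* libraries, at 2.34, 2.11, 0.757 and 0.676 CPM, and its *o2* libraries, at 2.02, 1.94, 1.70 and 2.16 CPM, were already above WT. Zm00001d025682 had an interaction of 1.29 (adjusted p = 0.0084), although its triple mutant level was below WT. Its *nkd1 nkd2* libraries were at 13.4, 13.9, 9.91 and 11 CPM and its *o2* libraries at 21.1, 20.3, 16.3 and 12.6 CPM. Without replicate 3 the count above 0 was 19, and that over all genes went from 2667 to 1313. At 8 DAP the interaction was above 0 in 31 genes and below 0 in 7, where 8.2% and 7.64% of all genes were called.

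The triple mutant had more members called lower than higher at 8 DAP. Of the 200 genes, 179 passed the filter, 52 fell against WT (26%) and 6 rose, where 13% of all genes tested fell and 2.24% rose. Of the 52 that fell at 8 DAP, 24 rose at 12 DAP, which is 46.2% of the 52 and 27.0% of the 89 that rose at 12 DAP. These 24 were 12% of the 200 genes, where 1.69% of all genes tested at both ages fell at 8 DAP and rose at 12 DAP. Zm00001d030346 was one of them. It was at 8.94, 4.62, 6.09 and 0.120 CPM in WT at 8 DAP and at most at 0.173 CPM in the triple mutant, and 3 WT libraries were high and the fourth was not. At 12 DAP it rose in the triple mutant, with a log2FC of 4.23 ± 1.13 (adjusted p = 0.00276). Zm00001d012484 was at 19.6, 10.9, 6.99 and 0.582 CPM in WT and at 0.289, 0.306, 0.635 and 2.25 CPM in the triple mutant (log2FC = -3.37, adjusted p = 0.00333). Here the fourth WT library lay within the triple mutant range. Zm00001d008312 was at 2.6, 1.34, 1.22 and 0.0401 CPM in WT and at 0, 0.0170, 0 and 0.0172 CPM in the triple mutant (adjusted p = 0.00136).

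The fourth WT library of 8 DAP lay farthest from its group mean of the WT libraries at this age. Its distance was 122 against 67.6 to 92.1 for the other 3. By a count made for the set only, it was the lowest of its group for 98 of the 200 genes. Its part in the results at 8 DAP was measured by leaving replicate 4 out of every group, after which 56 genes fell. The count at 8 DAP depended more on replicates 1 and 3, since 29 genes fell without replicate 1 and 34 without replicate 3. Of all genes tested, 3322 fell in the main fit, 1806 without replicate 1 and 2099 without replicate 3. Zm00001d029625 did not rest on the fourth library, with 5.90, 4.50, 6.82 and 3.03 CPM in WT and 1.82, 1.05, 0.865 and 1.98 CPM in the triple mutant (log2FC = -1.76, adjusted p = 6.22e-05). Its WT and triple mutant libraries did not overlap at 8 DAP, and the order of the genotypes was the opposite at 12 DAP.

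In WT most of the 200 genes were higher in the youngest endosperm, and so were most of all genes. The mean at 8 DAP was above that at 16 DAP for 169 genes (84.5%, where 79.2% of all genes were) and, as CPM + 1, at least 2 times as high for 117 (58.5%, where 44% of all genes were). The 16 DAP libraries of WT took part in the choice of the genes, so the course was tested from 8 to 12 DAP. In WT, 94 of the 200 genes fell from 8 to 12 DAP (47%) and 15 rose, where 22% of all genes tested fell and 12.7% rose. In *nkd1 nkd2 o2*, 23 fell (11.5%) and 64 rose (32%), where 12.1% and 13.4% of all genes did. Of the 94 genes that fell in WT, 23 fell, 22 rose and 49 had no call in the triple mutant. Another 31 rose in the triple mutant with no call in WT, and 11 rose in both. Of all genes tested, 8.29% fell in both genotypes, 1.57% fell in WT and rose in the triple mutant, 5.73% rose in the triple mutant with no call in WT and 6.14% rose in both. The log2FC from 8 to 12 DAP was higher in the triple mutant than in WT for 164 of the 189 genes tested, a count with no test of its own.

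**Figure D4:**
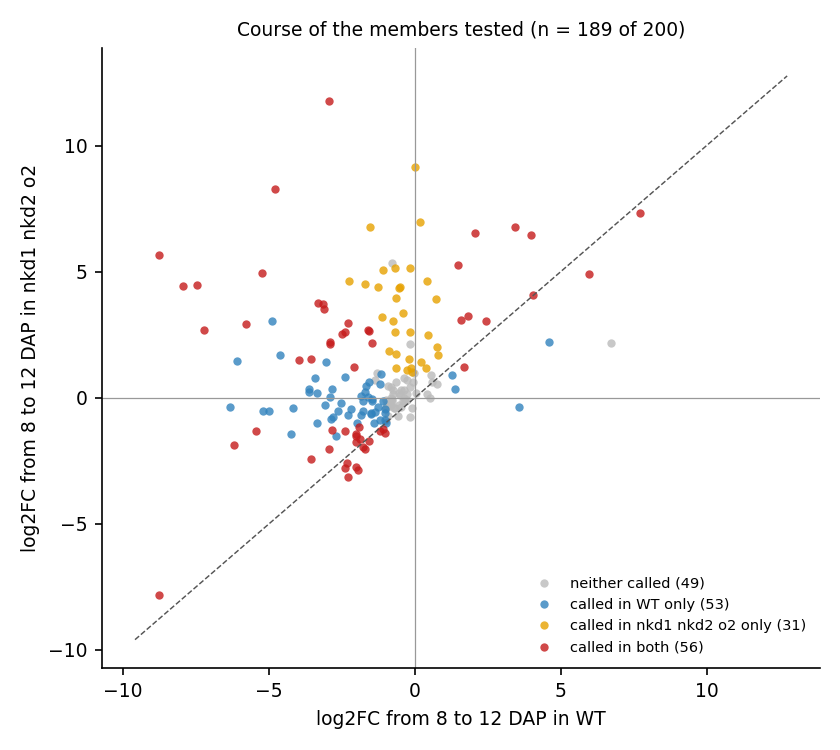
Change from 8 to 12 DAP as log2FC, in WT on the horizontal axis and in *nkd1 nkd2 o2* on the vertical axis, for the 189 of 200 genes tested, coloured by whether the change was called in WT only (53), the triple mutant only (31), both (56) or neither (49). Of the points, 164 lie above the line of equal change.

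Zm00001d029625 followed opposite courses in WT and the triple mutant. In WT it fell from 5.90, 4.50, 6.82 and 3.03 CPM at 8 DAP to 0.776, 0.449, 0.539 and 0.488 CPM at 12 DAP (log2FC = -2.49, adjusted p = 1.73e-06). In the triple mutant it rose from 1.82, 1.05, 0.865 and 1.98 CPM to 7.39, 7.32, 8.49 and 6.99 CPM (log2FC = 2.54, adjusted p = 1.28e-06). At 16 DAP the triple mutant stayed high, at 7.82, 11.1, 11.1 and 11.1 CPM, and WT stayed low, at 1.19, 1.40, 0.920 and 1.25 CPM. Zm00001d012484 had the same pair of courses, with a log2FC of -3.32 in WT and of 3.76 in the triple mutant (adjusted p = 0.00115).

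Other named genes fell in WT from 8 to 12 DAP and had no call in the triple mutant. The difference between the 2 courses was not tested. Zm00001d051313 was at 3.93, 4.30, 4.11 and 3.97 CPM in WT and at 4.64, 4.18, 5.02 and 3.98 CPM in the triple mutant at 8 DAP, with 2 triple mutant libraries within the WT range and 2 above it. By 12 DAP it had fallen in WT (log2FC = -2.91, adjusted p = 1.67e-08), while the log2FC in the triple mutant was 0.03 (adjusted p = 0.914). Zm00001d044607 was at 12.4, 12.6, 13.8 and 13.6 CPM in WT and at 15.1, 14.6, 16.8 and 13.8 CPM in the triple mutant at 8 DAP. It fell in WT with a log2FC of -2.87 (adjusted p = 1.1e-06), against -0.86 in the triple mutant (adjusted p = 0.0195), which is short of the limit on the fold. Zm00001d011208 fell in WT from 44.3, 19.0, 28.2 and 18.7 CPM to 4.10, 2.07, 2.6 and 2.39 CPM (log2FC = -2.63). In the triple mutant it went from 21.5, 13.3, 13.9 and 17.0 CPM to 8.25, 9.19, 15.8 and 8.20 CPM, where 3 libraries of 12 DAP lay below all of 8 DAP, with a log2FC of -0.52 (adjusted p = 0.119).

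Zm00001d046184, one of the 3 genes with the largest WT decline, did not reach the early WT level in the triple mutant at 16 DAP. It was at 183, 134, 99 and 10.1 CPM in WT at 8 DAP and at 0.418, 0.0250, 0.0200 and 0.116 CPM at 12 DAP (adjusted p = 0.000121). In the triple mutant it was at 0.374, 0.0340, 0.0769 and 11.7 CPM at 8 DAP and at 3.52, 7.80, 1.54 and 8.06 CPM at 16 DAP, so the triple mutant level at 16 DAP was above that of WT at the same age and far below that of WT at 8 DAP. Over the set, the mean of the triple mutant at 16 DAP was above the WT mean at 8 DAP for 122 genes, and the triple mutant at 16 DAP had the highest mean of all 24 groups for 98. WT at 8 DAP had the highest for 30. These counts use the 16 DAP levels that chose the genes, and the shares of all genes were not computed. For the other genes with the largest declines, the mean of the triple mutant at 16 DAP was above the WT mean at 8 DAP. At 8 DAP the triple mutant itself was at most at 0.0172 CPM for Zm00001d008312 and at 0.0344 CPM for Zm00001d003999. Zm00001d003999 was at 1.44, 0.146, 1.30 and 0.0201 CPM in WT at 8 DAP and at 0 at 12 DAP (adjusted p = 0.00236), and it was at 3.10, 1.41, 2.05 and 1.99 CPM in the triple mutant at 16 DAP. Zm00001d008312 also went to 0 in WT at 12 DAP (adjusted p = 0.00119). A few genes went the other way in WT. Zm00001d038772 rose from 0.152, 0.0972, 0.0544 and 0.10 CPM to 6.86, 3.32, 4.39 and 2.28 CPM (log2FC = 5.96, adjusted p = 2.45e-07), and it rose in the triple mutant too (log2FC = 4.92). Zm00001d003190 rose in WT from at most 0.152 CPM at 8 DAP (adjusted p = 0.00018), to uneven levels at 12 DAP.

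The choice of the genes did not look at *nkd1 o2* or *nkd2 o2*, and the rise was not particular to the triple mutant for many of them. L at 16 DAP was 1 or more in *nkd1 o2* for 75 genes (37.5%, where 15.7% of all genes were) and in *nkd2 o2* for 32 (where 8.76% were), in both for 23 and in either for 84. With TMM-normalized CPM the counts were 34 for *nkd1 o2* and 12 for *nkd2 o2*. These differences use the same WT libraries as the choice and have no test. The triple mutant had the highest mean of the 8 genotypes at 16 DAP for 183 genes, and the second highest was *nkd1 o2* for 105, *nkd1 nkd2* for 57 and *nkd2 o2* for 28. This order follows in part from the choice, which held *nkd1 nkd2* and *o2* near WT and the triple mutant high. It was not counted over all genes.

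Loss of O2 in plants that already lacked 1 of the NKD proteins was tested in the 16 libraries of *nkd1*, *nkd2*, *nkd1 o2* and *nkd2 o2*, none of which had a part in the choice. Of the 200 genes, 172 passed the filter. In *nkd1 o2* against *nkd1*, 73 rose (36.5%) and 1 fell, where 8.08% of all genes tested rose and 8.16% fell. In *nkd2 o2* against *nkd2*, 42 rose (21%) and 3 fell, where 7.78% rose and 6.27% fell. The 2 comparisons share no library, and 24 genes rose in both, which is 32.9% of the 73 and 57.1% of the 42. These 24 were 12% of the 200 genes, where 3.3% of all genes tested rose in both. Set directly against *nkd2 o2*, *nkd1 o2* was called higher in 12 genes and lower in 3, where 2.21% and 3.08% of all genes were. The mean CPM was higher in *nkd1 o2* for 137 of the 200, where it was for 63.2% of all genes. A total of 66 of the 200 genes had no called rise over WT in the triple mutant at 12 DAP or in either of these comparisons. These 66 include genes that did not pass the filter and had no test, such as Zm00001d008312. The share of all genes was not computed.

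**Figure D5:**
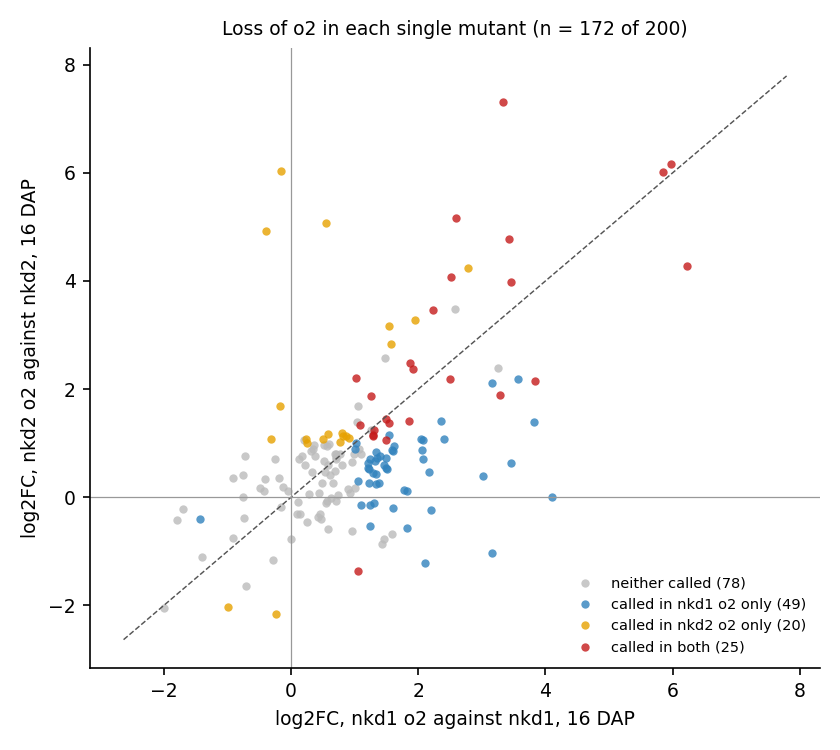
Change at 16 DAP as log2FC with loss of O2, in *nkd1* plants (*nkd1 o2* against *nkd1*, horizontal axis) and in *nkd2* plants (*nkd2 o2* against *nkd2*, vertical axis), for the 172 of 200 genes tested, coloured by whether the change was called in *nkd1* plants only (49), in *nkd2* plants only (20), in both (25) or in neither (78). The 25 called in both include 24 that rose in both.

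Among the genes that rose in *nkd1 o2* over *nkd1*, some reached the triple mutant level or more, and others did not. Zm00001d053212 was at 119, 106, 109 and 94.8 CPM in *nkd1 o2*, at 20.0, 19.5, 14.6 and 12.8 CPM in *nkd1* and at 88.1, 69.4, 55.6 and 67.9 CPM in *nkd1 nkd2 o2* at 16 DAP. All 4 *nkd1 o2* libraries lay above those of the triple mutant, and the log2FC over *nkd1* was 2.07 ± 0.21 (adjusted p = 2.04e-06). Zm00001d012553 was at 74.7, 66.8, 55.1 and 58.2 CPM in *nkd1 o2*, at 5.67, 6.48, 12.0 and 11.9 CPM in *nkd1* and at 47.9, 60.8, 43.2 and 36.1 CPM in the triple mutant, with a log2FC over *nkd1* of 2.19 (adjusted p = 0.00043). In *nkd2 o2* the same gene was at 9.65, 13.6, 12.5 and 4.47 CPM, within or below the WT range of 10.1 to 15.1 CPM, and its log2FC over *nkd2* was -0.24 (adjusted p = 0.657). Set directly against *nkd2 o2*, *nkd1 o2* was higher for both genes, with a log2FC of 2.56 for Zm00001d012553 (adjusted p = 0.000493) and of 1.38 for Zm00001d053212 (adjusted p = 0.000315). Zm00001d025465 was at 2.32, 1.89, 3.08 and 2.49 CPM in *nkd1 o2* and at 0.0244, 0.0510, 0 and 0 CPM in *nkd1* (adjusted p = 1.2e-06), and at 0.641, 0.346, 0.415 and 0.559 CPM in *nkd2 o2* (adjusted p = 5.19e-05 against *nkd2*). Its *nkd1 o2* libraries all lay above those of *nkd2 o2*. Zm00001d035617 was at 2.69, 2.13, 2.49 and 1.88 CPM in *nkd1 o2* and at 0.0488, 0.102, 0.0818 and 0.179 CPM in *nkd1*, with a log2FC of 3.83 ± 0.65 (adjusted p = 0.000214), and had a log2FC of 2.15 over *nkd2* in *nkd2 o2* (adjusted p = 0.00995). Zm00001d012850 was at 0.370, 0.434, 2.30 and 0.483 CPM in *nkd1 o2* and at most at 0.0733 CPM in *nkd1* (adjusted p = 0.00168). Zm00001d021677 was at 0.370, 0.152, 4.49 and 0.356 CPM in *nkd1 o2* and at most at 0.0273 CPM in *nkd1* (adjusted p = 0.00299). In both genes the third *nkd1 o2* library was the high one. It lay farthest from its group mean, with a distance of 94.3 against 64.6 to 70.3 for the other 3. Without replicate 3 the log2FC over *nkd1* was 2.70 for Zm00001d012850 (adjusted p = 0.0269), where it was 4.11 with it, and Zm00001d021677 was still called (adjusted p = 0.0118). In *nkd1 nkd2 o2* the libraries were at 2.42 to 4.15 CPM for Zm00001d012850 and at 3.10 to 4.21 CPM for Zm00001d021677. Apart from the third library of Zm00001d021677, the *nkd1 o2* libraries of both genes lay below these ranges. Zm00001d021677 had no read in *nkd2* and was at least 10.9-fold higher in *nkd2 o2* (adjusted p = 0.0179), a call lost without replicate 1 (adjusted p = 0.0688) or replicate 2 (adjusted p = 0.0573).

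Other named genes rose in *nkd2 o2* over *nkd2*. Zm00001d030346 was at 11.4, 17.0, 15.3 and 9.93 CPM in *nkd2 o2* and at 0.543, 0.402, 0.868 and 0.814 CPM in *nkd2* (log2FC = 4.07, adjusted p = 5.49e-06), and at 2.65, 5.38, 1.59 and 5.51 CPM in *nkd1 o2* (log2FC over *nkd1* = 2.51, adjusted p = 0.00043). Its *nkd2 o2* libraries overlapped those of the triple mutant and its *nkd1 o2* libraries did not, and it was lower in *nkd1 o2* than in *nkd2 o2* (log2FC = -1.92, adjusted p = 0.00477). Zm00001d025682 was at 0.670, 0.969, 1.26 and 0.966 CPM in *nkd2*, far below its 19.3 to 52.1 CPM in WT, and at 78.0, 60.8, 95 and 79.8 CPM in *nkd2 o2*, with a log2FC of 6.04 ± 0.44 (adjusted p = 5.04e-08). This gene was thus low in the *nkd2* mutant and above WT in *nkd2 o2*. Zm00001d037931 was at 1.59, 2.37, 2.38 and 0.492 CPM in *nkd2 o2* and at 0, 0.118, 0.0207 and 0 CPM in *nkd2*, with a log2FC of 5.17 (adjusted p = 0.000254). Zm00001d019291 was at 0.311, 0.789, 0.634 and 0.291 CPM in *nkd2 o2* and at 0 in *nkd2*, at least 27.2-fold higher (adjusted p = 0.00142), and its *nkd1 o2* libraries, at 1.15, 0.239, 0.708 and 0.381 CPM, were also above *nkd1* (adjusted p = 0.0151). In this gene both combinations stayed far below the 8.04 to 10.8 CPM of the triple mutant. Zm00001d014933 had no read in *nkd1* or *nkd2* and rose in both combinations, at least 11.2-fold in *nkd1 o2* (adjusted p = 0.0119) and at least 12.0-fold in *nkd2 o2* (adjusted p = 0.00746). The call in *nkd1 o2* was lost without replicate 1 (adjusted p = 0.0533) or replicate 3 (adjusted p = 0.0607). Zm00001d029625 was at 4.34, 3.80, 4.88 and 4.29 CPM in *nkd1 o2* and at 2.66, 3.25, 3.32 and 1.9 CPM in *nkd2 o2*, between WT and the triple mutant in both, with a log2FC of 1.87 over *nkd1* (adjusted p = 0.000791) and of 2.48 over *nkd2* (adjusted p = 0.000113).

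Only 4 genes were called lower with loss of O2 in these plants. Zm00001d023570 was at 0.220, 0.867, 0.382 and 0.409 CPM in *nkd1* and at 0.391, 0.347, 0.244 and 0.0762 CPM in *nkd1 o2*, which overlap (log2FC = -1.43, adjusted p = 0.0462), and the call was lost in 6 of the other fits, among them those without replicate 2 (adjusted p = 0.231), 3 (0.119) or 4 (0.147). Zm00001d044043 was at 1.15, 2.55, 1.41 and 1.19 CPM in *nkd2* and at 0.563, 0.269, 0.656 and 0.224 CPM in *nkd2 o2* (log2FC = -2.16, adjusted p = 0.00254). Zm00001d026712 also fell in *nkd2 o2* (log2FC = -2.04, adjusted p = 0.00909), but not without replicate 2 (adjusted p = 0.0781) or replicate 3 (adjusted p = 0.0566). Zm00001d022381 moved in opposite directions in the 2 backgrounds. It was at 34.5, 29.8, 24.2 and 38.4 CPM in *nkd2* and at 32.5, 10.6, 10.7 and 6.82 CPM in *nkd2 o2*, where 1 library stayed high (log2FC = -1.36, adjusted p = 0.00297), and it rose in *nkd1 o2* over *nkd1* (log2FC = 1.05, adjusted p = 0.0173).

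A product name was found for 7 of the 200 genes. *AGO2A* (Zm00001d002316) encodes an ARGONAUTE2, a protein of the class that binds small RNAs and acts in RNA silencing. It was at 39.1, 17.8, 35.8 and 10.4 CPM in WT and 8.89, 6.64, 7.33 and 9.40 CPM in the triple mutant at 8 DAP, at 2.77, 1.52, 1.80 and 1.49 CPM and 5.48, 7.84, 5.67 and 4.84 CPM at 12 DAP, and at 4.45, 3.85, 3.58 and 3.23 CPM and 21.9, 15.6, 16.6 and 27.0 CPM at 16 DAP. The triple mutant was thus below every WT library at 8 DAP and above every one at 12 and 16 DAP. *AGO2A* fell in the triple mutant at 8 DAP (log2FC = -1.61, adjusted p = 0.000461) and rose at 12 DAP (log2FC = 1.21 ± 0.24, adjusted p = 0.000128), where the log2FC without replicate 2 was 0.99. In WT it fell from 8 to 12 DAP (log2FC = -3.08, adjusted p = 7.42e-07). In *nkd1 o2* at 16 DAP it was at 8.70, 6.69, 34.7 and 6.37 CPM and in *nkd1* at 2.27, 2.17, 2.21 and 2.20 CPM, where the third *nkd1 o2* library stood apart (log2FC = 2.05, adjusted p = 0.00589, and log2FC = 1.11, adjusted p = 0.0361 without replicate 3).

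The MYB-related gene *mybr24* (Zm00001d008808), of a family of DNA-binding proteins, was highest in the triple mutant and next in *nkd1 nkd2*. At 16 DAP it was at 3.52, 2.77, 2.81 and 3.90 CPM in *nkd1 nkd2 o2*, at 0.706, 0.650, 0.470 and 0.267 CPM in *nkd1 nkd2* and at 0.0265, 0.0250, 0.158 and 0.0313 CPM in WT, and it had no read in *nkd1 o2*. All 4 *nkd1 nkd2* libraries lay between those of the triple mutant and WT. The study called *mybr24* upregulated in *nkd1 nkd2* at 16 DAP, although its L there was 0.52, within the limit of the choice. At 12 DAP it was at 0.305, 0.216, 0.961 and 0.514 CPM in the triple mutant and at 0 in WT, at least 30.5-fold higher (adjusted p = 7.14e-05). Its *nkd1 nkd2* libraries of 12 DAP, at 0.298, 0.430, 0.211 and 0.0731 CPM, overlapped those of the triple mutant. Both partial mutants were also called higher than WT at 12 DAP, *nkd1 nkd2* with an adjusted p of 0.000692 and *o2* with one of 0.0368, and the triple mutant was not called against *nkd1 nkd2* (log2FC = 0.89, adjusted p = 0.424).

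The remorin gene Zm00001d002842, whose class of proteins sits at the plasma membrane, was higher in the triple mutant at all 3 ages. It was at 119, 110, 115 and 95.5 CPM against 58.6, 53.1, 82.0 and 65.8 CPM in WT at 8 DAP, at 59.1, 54.2, 54.0 and 35.4 CPM against 11.2, 7.51, 9.21 and 13.6 CPM at 12 DAP and at 51.1, 51.9, 40.5 and 44.2 CPM against 13.2, 13.2, 13.3 and 19.2 CPM at 16 DAP. Triple mutant and WT libraries did not overlap at any age, and the log2FC at 12 DAP was 1.84 ± 0.16 (adjusted p = 2.07e-10). Both partial mutants were above WT at 12 DAP as well, with 24.3, 30.0, 19.2 and 23.6 CPM in *nkd1 nkd2* and 28.6, 20.9, 20.3 and 27.0 CPM in *o2*.

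The other 4 genes with a product name did not pass both limits in the triple mutant against WT at 12 DAP. Zm00001d005498, a guanosine nucleotide diphosphate dissociation inhibitor, the class of proteins that recycles small GTPases of membrane traffic, was at 18.5, 16.2, 14.8 and 21.1 CPM in the triple mutant and 5.75, 4.50, 4.94 and 4.04 CPM in WT at 16 DAP. It had a log2FC of 0.56 at 12 DAP (adjusted p = 0.0138). With loss of O2 it rose over *nkd1* (log2FC = 1.5, adjusted p = 1.19e-05) and over *nkd2* (log2FC = 1.06, adjusted p = 0.000252), so its higher level was shared by both combinations with 1 *nkd* mutation. Zm00001d009564, of the guanylate-binding family, was at 45.8, 51.6, 35.1 and 45.6 CPM against 16.2, 10.3, 14.0 and 13.1 CPM at 16 DAP and had a log2FC of 0.64 at 12 DAP (adjusted p = 0.000363). Zm00001d006196, annotated as the ribosomal protein S31 of a small subunit, was at 22.2, 24.7, 24 and 23.1 CPM against 8.58, 7.73, 7.26 and 4.86 CPM at 16 DAP, did not differ past the test at 12 DAP (log2FC = -0.01, adjusted p = 0.97), and rose in *nkd2 o2* over *nkd2* (log2FC = 1.08, adjusted p = 1.74e-05). Zm00001d005752, of the uncharacterized DUF868 family, was at 5.54, 7.66, 3.42 and 4.19 CPM against 1.06, 0.80, 0.762 and 1.16 CPM at 16 DAP, and had an interaction of 1.51 at 12 DAP (adjusted p = 0.00403).

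The most abundant genes of the set were named after their values were seen. Zm00001d014124 was at 358, 336, 378 and 415 CPM in the triple mutant at 16 DAP, at 109, 102, 108 and 107 CPM in WT, at 169, 181, 158 and 177 CPM in *nkd1 nkd2* and at 173, 170, 152 and 152 CPM in *o2*. The triple mutant at 16 DAP was near the WT level of 8 DAP, 383, 393, 428 and 397 CPM. At 12 DAP it was at 343, 340, 325 and 326 CPM in the triple mutant and at 166, 134, 145 and 134 CPM in WT, with no overlap, but its log2FC of 0.76 ± 0.08 (adjusted p = 1.26e-08) was below the limit of 1. Zm00001d019507 was at 248, 288, 249 and 277 CPM against 70.2, 71.8, 72.5 and 70.6 CPM at 16 DAP and at 177, 181, 230 and 223 CPM against 77.8, 56.1, 56.5 and 60.5 CPM at 12 DAP (log2FC = 1.25 ± 0.13, adjusted p = 9.22e-09). It rose with loss of O2 in *nkd1* plants as well (log2FC = 1.06, adjusted p = 0.0004). Zm00001d023343 was at 171, 227, 155 and 196 CPM against 77.9, 41.5, 48.4 and 75.8 CPM at 16 DAP and rose at 12 DAP (log2FC = 1.15, adjusted p = 0.00359).

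The position of the genes was read only from their numbers, which follow the order along the B73 chromosomes. Within 200 numbers of a mutated gene lay 2 of the 200 genes for *nkd1*, 1 for *nkd2* and 0 for *o2*, and 2 pairs of the set had neighbouring numbers. Positions were counted for the set only.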

How the data were processed

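Per the labels and the study's methods, the authors aligned 150-base paired reads to B73 RefGen_v4 with HISAT2 (2.1.0), used SAMtools (1.9) and StringTie (1.3.6), and counted reads per gene with HTSeq (0.11.1). The deposited values were whole-number counts, 1 file per library. Of the reads in a table, 13.4% to 29.0% were in rows that name no gene and were left out. Whether counting used strand is not given in the sources used here, so reads of a gene and of an overlapping or antisense gene cannot be told apart.

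CPM was computed over gene rows. Tests used edgeR (4.0.16, in R 4.3.3) with TMM, filterByExpr and quasi-likelihood F-tests, adjusted by Benjamini-Hochberg over all genes tested: 32 libraries per age at 8 and 12 DAP, 16 for each interaction, 16 for the single and double mutants at 16 DAP, and 16 for WT and the triple mutant from 8 to 12 DAP. DESeq2 (1.42.0) was an alternative, with size factors, no filter, other libraries in the fit, the replicate number as a block and each replicate left out. The steps were tested on simulated data, where edgeR found 145 of 200 genes changed by a log2FC of 2 at 12 DAP against WT. Ears were separate within a group, so p-values measure the spread between ears. Ears shared between ages, if any, could not be taken into account from 8 to 12 DAP.

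The genes, lists and tests were chosen with earlier results of these data known. Named genes were the mutated genes, the 12 members with the highest L, the 10 with the largest change at 12 DAP among those averaging 100 counts or more, members called lower there, those with a product name, up to 5 by fold in each direction with loss of O2, the 3 largest falls and rises in WT from 8 to 12 DAP, and the genes at each threshold. The comparison of *nkd1 o2* with *nkd2 o2* was added after seeing the data. Product names came only from the study's gene tables. The reference gene table held none of the gene IDs, so function groups and promoters were not analysed here. Of the marker genes, *o2*, *fl2*, *c1* and *mcm6* could be matched.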

Additional observations from a re-analysis of the deposited data

Results flagged for a closer look

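The effect of *o2* differed between plants with and without NKD1 and NKD2 in part of the 200 genes, by edgeR's test of the interaction term in 16 libraries per age. It did so in part of all genes as well. What set the 200 genes apart was the uneven sign, with 23% above and 2.5% below 0 at 12 DAP. At 12 DAP the interaction was above 0 in 46 of the 200 genes and below 0 in 5, where 11.3% and 12.4% of all genes tested were called. At 8 DAP it was above 0 in 31 and below 0 in 7, where 8.2% and 7.64% of all genes were. The counts above 0 ranged from 19 to 44 at 12 DAP and from 13 to 28 at 8 DAP when a replicate was left out. Over all genes they ranged from 1313 to 2059, beside 2667 in the main fit, and from 820 to 1374, beside 2003.

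The summed level of the 200 genes in each of the 24 groups and the levels of named genes, 199 groups of 4 libraries in all, were checked for 1 library far from the other 3 with Dixon's limit. Of these, 19 were past it, and none was a summed level. The limit is passed by about 1 in 20 groups of normally spread values, but always by a group of zeros with 1 library above 0. Zm00001d008312 in WT at 16 DAP and Zm00001d019291 in *nkd1 nkd2* at 12 DAP were such groups. The count is therefore not set against chance. The third *nkd1 o2* library of 16 DAP was the high one for *AGO2A* (34.7 CPM), Zm00001d012850 (2.30 CPM) and Zm00001d021677 (4.49 CPM). The third triple mutant library of 12 DAP was high for Zm00001d011208 (15.8 CPM) and Zm00001d024814 (2.90 CPM). In WT at 12 DAP, 1 library was high for Zm00001d003190 (28.1 CPM), Zm00001d024814 (4.48 CPM) and Zm00001d025682 (53.1 CPM), and at 16 DAP for the remorin gene Zm00001d002842 (19.2 CPM), *mybr24* (0.158 CPM), Zm00001d031778 (0.251 CPM) and Zm00001d008312 (0.0313 CPM). In *o2*, Zm00001d012553 was low in 1 library of 12 DAP (3.04 CPM), and Zm00001d019291 (0.622 CPM) and Zm00001d031778 (0.0770 CPM) were high in 1 library of 16 DAP. Zm00001d022381 was high in 1 *nkd2 o2* library of 16 DAP (32.5 CPM) and Zm00001d019291 in 1 *nkd1 nkd2* library of 12 DAP (0.0176 CPM). In the triple mutant, Zm00001d046184 was high in 1 library of 8 DAP (11.7 CPM) and Zm00001d029625 low in 1 library of 16 DAP (7.82 CPM).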

How the results depend on the processing

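Of the alternative values of the main counts, 114 were within 1.5 times the reported count and 14 were not. Which genes are in the set depended on its form: of the 200 genes, 101 were taken with TMM-normalized CPM, 108 with a pseudocount of 0.5, 103 with 2, 82 with a limit of 0.5 on *nkd1 nkd2* and *o2*, 69 with a limit of 1, and 124 to 138 with a replicate left out. With each replicate left out in turn, the triple mutant rose over WT at 12 DAP in 77 to 100 genes, over *nkd1 nkd2* in 36 to 60 and over *o2* in 66 to 81, and fell at 8 DAP in 29 to 56. The interaction was above 0 in 19 to 44 genes at 12 DAP and in 13 to 28 at 8 DAP, *nkd1 nkd2* rose in 11 to 21, *nkd1 o2* rose over *nkd1* in 57 to 77 and *nkd2 o2* over *nkd2* in 35 to 58. The lowest counts came without replicate 3 for *nkd1 nkd2* and the interaction at 12 DAP, without replicate 1 at 8 DAP, without replicate 2 for *nkd1 nkd2* against WT, and without replicates 2 and 3 for the interaction at 8 DAP. The counts over all genes tested fell with the same replicates left out. Without replicate 3 they went from 912 to 594 over *nkd1 nkd2* and from 2667 to 1313 for the interaction above 0 at 12 DAP. Without replicate 1, genes that fell at 8 DAP went from 3322 to 1806. The fewer calls were thus not particular to the 200 genes, and their cause was not tested.

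The log2FC of Zm00001d006196 at 12 DAP, -0.01, changed sign with DESeq2 (0.022), DESeq2 size factors (0.022), no filter (0.0090), only the groups compared (0.016) and some replicates left out, with a range of -0.040 to 0.056. With a replicate left out, that of Zm00001d024814 was -0.84 to 1.09 and that of Zm00001d003190 was -2.01 to 0.47. None of the 3 was called.

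Libraries with the same replicate number did not deviate together, with a correlation that ran from -0.448 to 0.361 at the youngest age, -0.153 to 0.184 at the next and -0.198 to 0.086 at the oldest, so the numbers did not pair the samples. With the replicate block 88 genes rose over WT at 12 DAP, 57 over *nkd1 nkd2* and 78 over *o2*, and 49 fell at 8 DAP. The block ended the call of Zm00001d023570 (adjusted p = 0.0684). Promoter motifs could not be run. In genes below 1 CPM, a library holds few reads, and counting error limits the fold.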
